A study of Mus musculus with 4 samples.

Results

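The guanylate-binding proteins described here are the 7 mouse genes Gbp3, Gbp4, Gbp5, Gbp7, Gbp8, Gbp9 and Gbp11, measured in ATDC5 cells, an established mouse line of cartilage progenitors that can differentiate into chondrocytes in culture. They were taken by symbol, as the probe sets annotated to exactly 1 of these genes, and each of the 7 had 1 such probe set among the 19938 genes tested. They were chosen for their difference between the days, so their values for that comparison are a description and carry no test. The 2 day 15 samples were ATDC5 cells grown for 15 days in basal medium with insulin, transferrin and selenite, and the 2 day 0 samples were ATDC5 cells in basal medium before differentiation. Both groups had ascorbic acid in the medium, and neither held cells kept for 15 days without the supplement, so time, supplement and differentiation cannot be told apart. Each sample was 1 one-colour array of total RNA. Separate cultures are not stated for the replicates, so the p-values reflect how these samples vary, and that variation may be technical.

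Guanylate-binding proteins are large GTPases related to the dynamins. In mice most of them are made in response to interferon, above all interferon-gamma, in part through the transcription factor Irf1. They gather on vacuoles and membranes that hold intracellular bacteria or parasites and help to open them and to start inflammasome signalling. The mouse genes lie in a pair of clusters, one on chromosome 3 and one on chromosome 5. In the gene table used for names (GRCm38.p6), Gbp5, Gbp7 and Gbp3 stand in the chromosome 3 cluster with Gbp2b and Gbp2. Gbp8, Gbp9, Gbp4 and Gbp11 stand in the chromosome 5 cluster with Gbp10 and Gbp6, and Gbp11 is listed there as a transcribed pseudogene.

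The promoters of the chromosome 3 members are shown because interferon acts on this family through short DNA elements near the start of transcription. A window of 300 bases, 250 before and 50 after the annotated start, was found for 3 of the 7 members in the RefSeq-derived promoter table (GRCm38.p6). Capitals mark matches to GAAANNGAA or its reverse complement TTCNNTTTC, a spaced repeat found in interferon-stimulated response elements. All 3 windows lie on the plus strand, at chr3:142496684-142496983 for Gbp5, chr3:142530086-142530385 for Gbp7 and chr3:142559794-142560093 for Gbp3.
Gbp5: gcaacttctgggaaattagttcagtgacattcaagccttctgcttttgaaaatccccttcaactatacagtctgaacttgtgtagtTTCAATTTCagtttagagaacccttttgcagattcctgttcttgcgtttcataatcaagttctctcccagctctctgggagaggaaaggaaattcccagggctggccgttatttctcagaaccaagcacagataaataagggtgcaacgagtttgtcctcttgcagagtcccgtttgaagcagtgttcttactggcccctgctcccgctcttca
Gbp7: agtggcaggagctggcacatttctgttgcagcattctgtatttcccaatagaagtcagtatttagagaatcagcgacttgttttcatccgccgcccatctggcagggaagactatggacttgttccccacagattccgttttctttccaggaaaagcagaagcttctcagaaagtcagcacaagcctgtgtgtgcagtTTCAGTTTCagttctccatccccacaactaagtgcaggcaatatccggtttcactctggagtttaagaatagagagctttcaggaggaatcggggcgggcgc
Gbp3: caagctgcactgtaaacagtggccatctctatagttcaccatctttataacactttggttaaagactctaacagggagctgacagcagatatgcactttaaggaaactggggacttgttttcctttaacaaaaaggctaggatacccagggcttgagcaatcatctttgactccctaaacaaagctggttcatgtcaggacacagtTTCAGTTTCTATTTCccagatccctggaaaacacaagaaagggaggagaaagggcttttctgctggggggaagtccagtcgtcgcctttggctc
The match ran from base -164 to -156 relative to the start in Gbp5 and from -52 to -44 in Gbp7. In Gbp3 there were 2 overlapping matches, from -44 to -36 and from -38 to -30. Over all 32851 promoter windows of this length, 8.56% held at least 1 such match on either strand. The palindrome TTCNNNGAA, the core of the interferon-gamma activated site, occurred 2 times in the window of Gbp5 and 2 times in that of Gbp7. It was not in the window of Gbp3, and 8.3% of all windows held it. The second annotated start of Gbp3 had neither motif in its window. A match is a string of letters only, and no binding was measured here.

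Some facts of the arrays bear on every value below. The deposited values are linear probe set intensities, and the median of all probe sets lay between 232 and 267 on the 4 arrays. The replicate 1 arrays of both days stood apart in genes of macrophages. Over 12 measured macrophage and microglia markers the summed intensity was 10810 and 3453 on day 15 replicates 1 and 2, against 9760 and 2356 on day 0 replicates 1 and 2. None of the 12 was called between the days. Csf1r, the receptor of macrophage colony-stimulating factor, stood at 10.19 and 6.49 at day 15 (log2 intensity, replicates 1 and 2), against 10.31 and 6.71 at day 0. The gap between its replicates gave a standard error of 1.52 log2 (limma), so the lack of a call says little for such genes. Lyz2, of the same list, stood at 11.07 and 10.38 at day 15, against 10.19 and 8.88 at day 0. Cd68 stood at 10.66 and 9.24 at day 15, against 9.41 and 8.10 at day 0. Of the 12 markers 3 were higher at day 15 on average, and the list's median was -0.17 log2. Adgre1 was lower on the replicate 1 array of both days. The other lists of foreign cells (osteoclast, T and NK cell, endothelial, adipocyte and muscle) had no called gene. Below the array median on both arrays of each day were 5 of 6 osteoclast and 7 of 10 T and NK cell markers. So were 7 of 7 endothelial, 3 of 5 adipocyte and 4 of 6 muscle markers, and such values may be background. All 5 adipocyte markers were lower at day 15 on average. Among them Pparg, at 11.57 at day 0 and 10.60 at day 15, differed by -0.97 ± 0.17 log2 (SE, limma adjusted p = 0.0695). Of 10 chondrocyte markers, which the label of the cells names, 7 rose and none fell. Over all genes tested 1.3% were called higher and 0.411% lower, so the lack of a call in the short lists above says little. In bulk samples fewer cells of a type and less RNA per cell cannot be told apart.

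All 7 guanylate-binding proteins were higher at day 15, by 0.91 to 4.28 log2, which is 1.87-fold to 19.4-fold, with a median of 1.94 log2. The median over all genes was 0.02 log2. The 4 members of the chromosome 5 cluster differed by 1.94 to 4.28 log2 and the 3 of the chromosome 3 cluster by 0.91 to 0.98 log2, so the 2 clusters did not overlap in size of difference. A difference in log2 is day 15 minus day 0 of log2(intensity + 1) after quantile normalization, and SE is limma's moderated standard error. In each of the 7 both day 15 arrays lay above both day 0 arrays, as in 22.3% of all genes tested. With limma's test at an adjusted p below 0.05 over all genes, 4 of the 7 were called higher, against 1.3% of all genes tested, and these were the chromosome 5 members. None of the 7 was called lower, against 0.411% of all genes. Since the members were chosen on this comparison, both counts are a description.

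**Figure D1:**
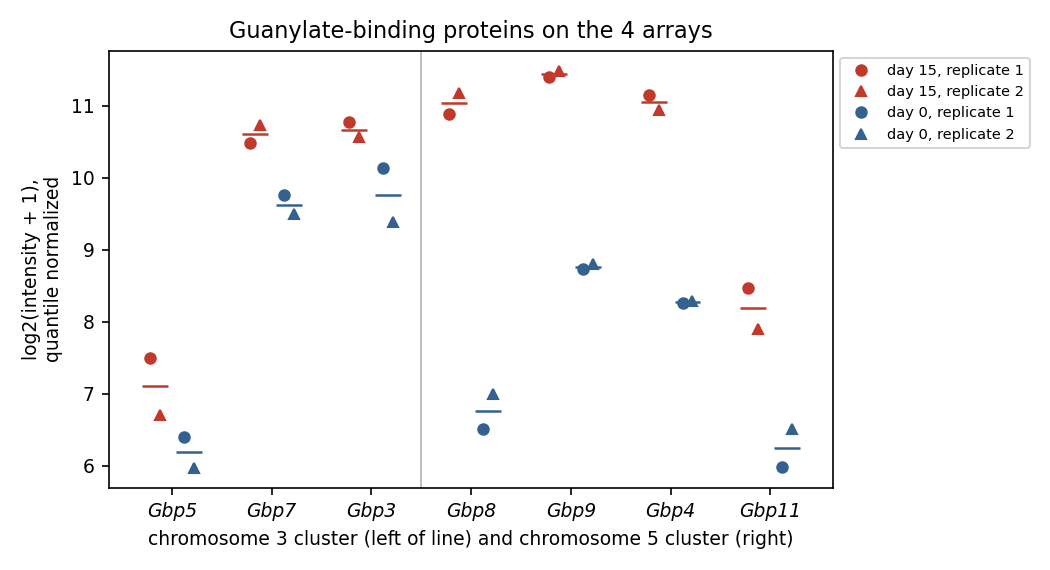
Log2(intensity + 1) after quantile normalization of the 7 guanylate-binding proteins on each array, with day 15 in red left of day 0 in blue, circles for replicate 1, triangles for replicate 2 and a bar at the mean of 2 arrays. The days are 4.28 log2 apart for Gbp8 and 0.91 to 0.98 log2 apart for the 3 genes left of the line.

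Gbp8, a member of the chromosome 5 cluster, had deposited intensities of 1899.6 and 2333 on the day 15 arrays, against 89.4 and 133 on the day 0 arrays. Both day 0 values lay below the median of all probe sets of their array, and both day 15 values lay far above it. After normalization Gbp8 averaged, in log2 intensity, 11.03 ± 0.21 at day 15 and 6.75 ± 0.34 at day 0 (SD, 2 arrays each). The difference of 4.28 ± 0.23 log2 (SE) was 19.4-fold and ranked 14 of 19938 genes. No detection call was used here, so the day 0 level may lie at background, and background light makes a fold from such a level look smaller.

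Gbp4, which is among the members of the chromosome 5 cluster that interferon-gamma induces in macrophages, had intensities of 2295 and 1993 at day 15, against 286 and 315 at day 0. The replicates of each day were close together and the days were far apart. On the log2 scale Gbp4 averaged 11.05 ± 0.14 at day 15 and 8.27 ± 0.02 at day 0 (SD, n = 2), and the days were 2.78 ± 0.17 log2 (SE) or 6.86-fold apart. Gbp9, its neighbour in the cluster, had 2719 and 2907 at day 15, against 398 and 446 at day 0. Its replicates differed less at day 15 than those of any other member, with means of 11.44 ± 0.06 at day 15 and 8.77 ± 0.05 at day 0. The difference of Gbp9 was 2.68 ± 0.16 log2 (SE), or 6.39-fold.

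Gbp11, the transcribed pseudogene, had intensities of 342 and 257 at day 15, against 62.7 and 96.2 at day 0. The day 0 values and the lower day 15 value were below the median of their array. On the log2 scale it averaged 8.18 ± 0.40 at day 15 and 6.25 ± 0.38 at day 0 (SD, n = 2), and the days were 1.94 ± 0.28 log2 (SE) or 3.83-fold apart. Without day 0 replicate 1 it was 1.70 log2, and without day 15 replicate 1 it was 1.63 log2. In these fits, and without day 15 replicate 2 (2.19 log2), Gbp11 was not among the called genes.

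A further probe set (10531994) is annotated to 6 genes of the chromosome 5 cluster at once, which are Gbp4, Gbp6, Gbp8, Gbp9, Gbp10 and Gbp11, and so names none of them. It read 3860.0 and 3960.2 at day 15, against 229 and 290 at day 0, a difference of 3.88 ± 0.17 log2 (SE). Signal from any of the 6 genes could enter it. The same holds in part for the single-gene probe sets, because genes of this family are similar in sequence and cross-hybridisation was not tested.

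The 3 chromosome 3 members differed less between the days than the chromosome 5 members. Gbp7, which in mouse macrophages takes part in delivering oxidase subunits to bacteria, had intensities of 1434 and 1734 at day 15, against 853 and 708 at day 0. On the log2 scale it averaged 10.61 ± 0.18 at day 15 and 9.63 ± 0.19 at day 0 (SD, n = 2), 0.98 ± 0.19 log2 (SE) apart. Gbp3 had 1769 and 1549 at day 15, against 1107 and 663 at day 0. The day 0 replicates of Gbp3 were 0.74 log2 apart, and its days differed by 0.91 ± 0.28 log2 (SE). Leaving out 1 array moved the difference of Gbp3 to between 0.53 log2 (without day 0 replicate 2) and 1.26 log2 (without day 0 replicate 1).

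Gbp5, known in mice for promoting assembly of the NLRP3 inflammasome, had 170.3 and 107 at day 15, against 83.0 and 66.3 at day 0. All 4 values lay below the median of their arrays. The day 15 replicates were 0.79 log2 apart, and the difference between the days was 0.92 ± 0.31 log2 (SE). It was 0.52 log2 without day 15 replicate 1 and 1.29 log2 without day 15 replicate 2. Gbp2b, of the same cluster but not among the 7, had means of 9.32 ± 0.70 at day 15 and 8.69 ± 0.24 at day 0 (SD, n = 2), a difference of 0.63 ± 0.34 log2 that did not pass (limma adjusted p = 0.589). Its day 0 replicate 1 was higher than its day 15 replicate 2, so its days overlapped. A probe set annotated to both Gbp2 and Gbp2b differed by 0.63 ± 0.37 log2 (SE).

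The replicate numbers were also read apart, since the macrophage markers followed them. Within the replicate 1 arrays the 7 members differed by a median of 2.49 log2 and within the replicate 2 arrays by 1.38 log2. Each reading rests on 1 array a day and has no test, and both medians are the values of Gbp11. The chromosome 5 members had medians of 2.78 log2 on the replicate 1 arrays and 2.68 log2 on the replicate 2 arrays. The chromosome 3 members had 0.71 and 1.17 log2. Gbp8 gave 4.37 and 4.19 log2, Gbp9 gave 2.66 and 2.69 log2 and Gbp4 gave 2.89 and 2.66 log2 on the replicate 1 and replicate 2 arrays. On the replicate 2 arrays these 3 differed by 2.66 log2 or more. The summed intensity of the macrophage markers was lower there than on the replicate 1 arrays. It was not equal between the days, with 3453 at day 15 and 2356 at day 0 on replicate 2. Gbp11 gave 2.49 and 1.38 log2, Gbp5 gave 1.10 and 0.74 log2, Gbp7 gave 0.71 and 1.24 log2 and Gbp3 gave 0.64 and 1.17 log2. At day 0 all 3 chromosome 3 members were higher on the replicate 1 array and all 4 chromosome 5 members were lower on it. The part of the macrophage markers in the values of the 7 members was not tested.

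**Figure D2:**
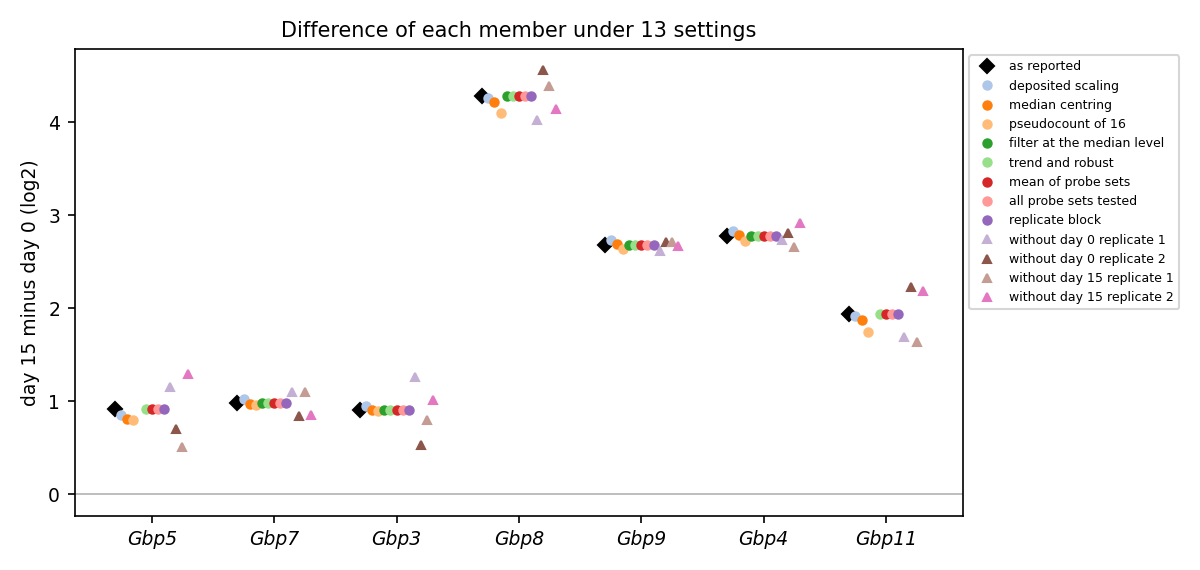
Day 15 minus day 0 difference (log2) of each guanylate-binding protein as reported (black diamond) and under 12 other settings, with circles for other processing and triangles for fits without 1 array. Gbp8 stays between 4.03 and 4.55 log2 and Gbp3 spans 0.53 to 1.26 log2, and no point lies at or below 0; Gbp5 and Gbp11 have no point for the filter at the median level, which removes them.

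The genes on either side of the clusters were read for comparison, chosen after the members' values were known as the nearest 3 measured protein-coding genes on each side. None of these 12 neighbours was called, and their differences ran from -0.50 log2 to 0.74 log2. Of all genes tested only 1.3% were called higher and 0.411% lower, so the lack of a call among so few genes says little. Beyond Gbp11, Lrrc8b differed by 0.74 ± 0.22 log2 (SE), Lrrc8c by -0.20 ± 0.21 log2 and Lrrc8d by 0.61 ± 0.24 log2. On chromosome 5 Abcg3, a transporter gene beside Gbp8, differed by 0.28 ± 0.17 log2 (SE). Lrrc8b, a subunit of a volume-regulated anion channel and the first measured gene beyond Gbp11, had means of 12.45 ± 0.28 at day 15 and 11.71 ± 0.21 at day 0 (SD, n = 2), a difference that had the lowest adjusted p of the 12 (limma adjusted p = 0.232). On chromosome 3 Pdlim5, the cytoskeletal adaptor before Gbp5, differed by -0.50 ± 0.17 log2 and Kyat3, an aminotransferase gene after Gbp2, by 0.18 ± 0.26 log2.

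**Figure D3:**
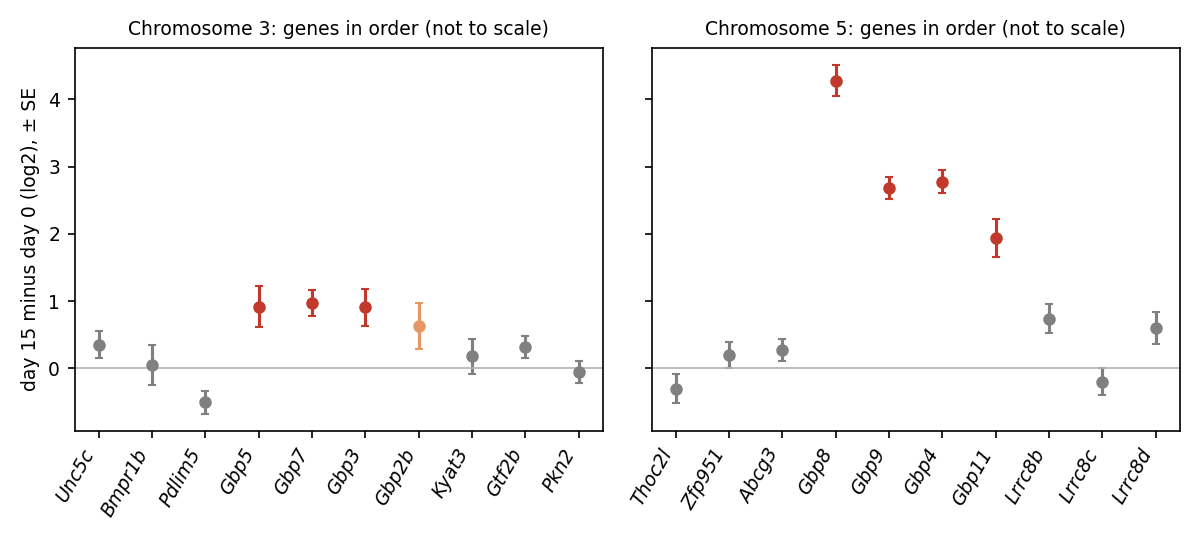
Day 15 minus day 0 difference (log2, bars ± SE of the fit) of the guanylate-binding proteins (red), Gbp2b (orange) and the nearest 3 measured protein-coding genes on each side (grey), in genomic order and not to scale. The red points of chromosome 5 lie at 1.94 to 4.28 log2 and those of chromosome 3 at 0.91 to 0.98 log2, while the 12 grey points lie between -0.50 and 0.74 log2.

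Other GTPases, from families with members that interferon induces, were compared as a list of 15, of which 6 had a single-gene probe set. None was called by limma and 2 had an unadjusted p below 0.05, and the list's median was 0.20 log2 against 0.02 log2 over all genes. Of all 19938 genes tested, 2425 had an unadjusted p below 0.05 (limma) and 1.3% were called higher. The counts of this list and of those below are to be read beside these shares. Iigp1, an immunity-related GTPase that acts on parasite vacuoles, had intensities of 470 and 267 at day 15, against 90.7 and 83.7 at day 0. The days lay 2.01 ± 0.33 log2 (SE) apart, which did not pass (limma adjusted p = 0.0554), but Iigp1 passed without day 15 replicate 2 (2.47 log2, limma adjusted p = 0.0207), on the deposited scaling (0.0422) and with trend and robust hyperparameters (0.0226). Irgm1, a regulator of this GTPase family, was at 11.81 ± 0.40 at day 15 and 11.71 ± 0.15 at day 0 (SD, n = 2; limma adjusted p = 0.963). Mx2, a dynamin-like antiviral GTPase, differed by 0.81 ± 0.19 log2 (limma adjusted p = 0.151) and Mx1 by -0.05 ± 0.17 log2 (limma adjusted p = 0.981). A probe set shared by Irgm2 and Igtp, which can be given to neither, read 725 and 569.9 at day 15, against 257 and 259 at day 0. The days overlapped for the 6 other shared probe sets of the list. The probe set of Ifi47 and Olfr56 read 811 and 386 at day 15, against 395 and 405 at day 0. The 2 probe sets of Tgtp1 and Tgtp2 differed by 0.78 and 0.75 log2, and the 3 that include Gvin1 by -0.01 to -0.09 log2. Atl1, an atlastin that fuses membranes of the endoplasmic reticulum and is a relative of the family, had means of 8.91 ± 0.31 at day 15 and 7.74 ± 0.16 at day 0 (limma adjusted p = 0.0781). It passed on the deposited scaling (0.0473) and with trend and robust hyperparameters (0.0487), and none of the 3 measured genes of the list of other family members and atlastins passed as reported (1 had an unadjusted p below 0.05).

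Among the 9 lists of the interferon pathway, the antiviral genes that interferon induces were the largest list and held the most called genes. Of 31 measured, 4 rose and none fell, against 1.3% and 0.411% of all genes tested. In this list 11 had an unadjusted p below 0.05 (limma), and the median was 0.34 log2. Ifit1, which binds foreign RNA ends, had intensities of 4489 and 3435 at day 15, against 1225 and 1156 at day 0. It rose by 1.69 ± 0.20 log2 (SE; limma adjusted p = 0.0200). Ifit3, its partner, rose by 1.82 ± 0.18 log2 (limma adjusted p = 0.0125). Oasl2, of the oligoadenylate synthetase family, rose by 1.77 ± 0.20 log2 (limma adjusted p = 0.0190), and Ifi203, of the family of Aim2-like DNA sensors, rose by 2.17 ± 0.22 log2 (limma adjusted p = 0.0132). Without day 15 replicate 1 the calls of Ifit1 (limma adjusted p = 0.0687), Ifit3 (0.0513) and Oasl2 (0.0643) were lost, and without day 0 replicate 2 those of Ifit1 (0.0624) and Oasl2 (0.0585); 2 or fewer genes of the list were then called. When all probe sets were tested together none of the 4 passed (0.0798 to 0.111). At day 15 replicate 1 was above replicate 2 in 24 of the 31 genes, and in 55.5% of all genes. Read within replicate 1 alone, 26 of the 31 were higher at day 15 with a median of 0.30 log2. Within replicate 2 alone, 24 were higher with a median of 0.37 log2. Of all 19938 genes, 11005 were higher within replicate 1 (median 0.04 log2) and 10085 within replicate 2 (median 0.004 log2). These readings rest on 1 array a day and carry no test.

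**Figure D4:**
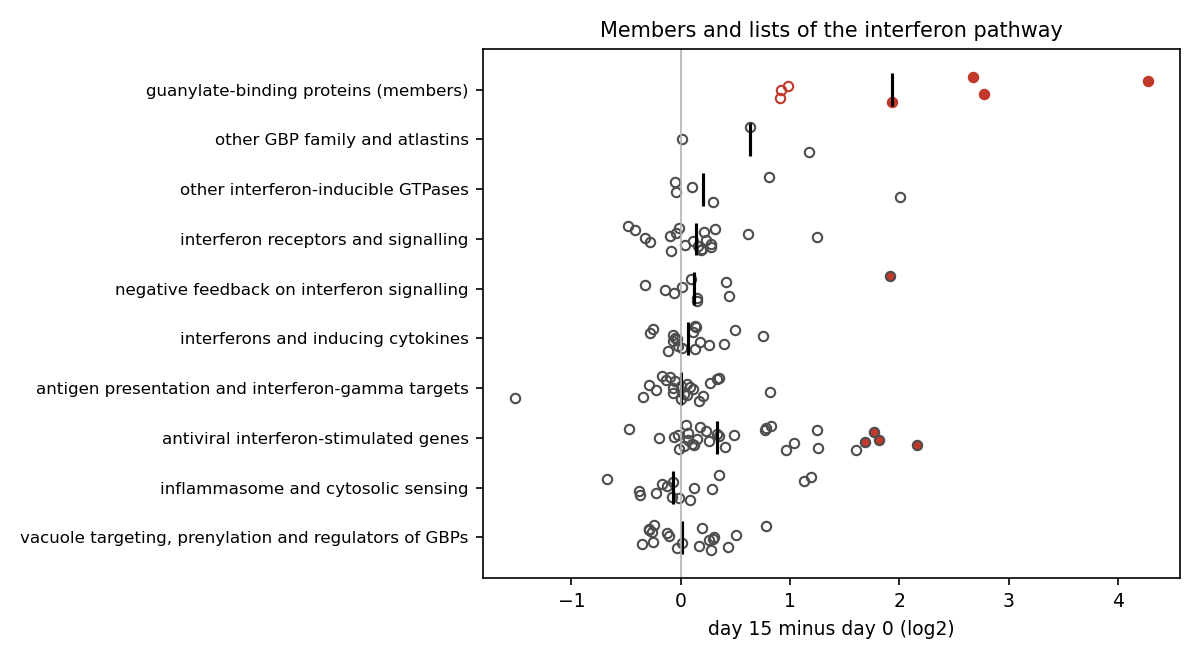
Day 15 minus day 0 difference (log2) of the 7 guanylate-binding proteins and of each measured gene of 9 lists of the interferon pathway, with filled points for genes called by limma (adjusted p below 0.05 over all genes), open points for the rest and a black bar at each list's median. The members' median is 1.94 log2, the antiviral list's is 0.34 log2 with 4 filled points, and the list of negative feedback has 1 filled point (Usp18).

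Receptors and factors that carry the interferon signal held no called gene among 20 measured, and the median was 0.14 log2. In that list 3 had an unadjusted p below 0.05 (limma), against 2425 of all 19938 genes. The receptor chains Ifngr1 and Ifngr2 of interferon-gamma differed by 0.28 ± 0.19 log2 (limma adjusted p = 0.714) and 0.16 ± 0.17 log2 (0.861). Irf1, the factor that drives many genes of this family, averaged 10.42 ± 0.01 log2 at day 15 and 10.70 ± 0.13 log2 at day 0 (SD, n = 2; limma adjusted p = 0.638). Irf7, which amplifies the type I interferon response, had intensities of 1103 and 649 at day 15, against 408 and 284 at day 0, 1.25 ± 0.35 log2 (SE) apart, which did not pass (limma adjusted p = 0.217). Irf9 differed by 0.61 ± 0.21 log2 (limma adjusted p = 0.324), Stat2, its partner, by 0.31 ± 0.20 log2 (0.678) and Irf8, a factor of myeloid cells, by -0.10 ± 0.36 log2 (0.983).

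Among 10 genes that damp interferon signalling 1 rose and none fell, against 1.3% and 0.411% of all genes tested. In this list 2 had an unadjusted p below 0.05 (limma), and the median was 0.12 log2. Usp18, a protease that removes Isg15 and blocks the type I receptor, had intensities of 6648 and 4052 at day 15, against 1167 and 1533 at day 0. It rose by 1.92 ± 0.29 log2 (SE; limma adjusted p = 0.0433). Its call was lost without day 0 replicate 1 (limma adjusted p = 0.0929), without day 0 replicate 2 (0.0562), without day 15 replicate 1 (0.106), with median centring (0.0512) and when all probe sets were tested together (0.189). Its difference was 2.48 log2 on the replicate 1 arrays and 1.36 log2 on the replicate 2 arrays. Pias3, an inhibitor of Stat signalling, differed by 0.44 ± 0.16 log2 (0.359).

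Interferons and the cytokines that induce them held no called gene among 18 measured, with 1 at an unadjusted p below 0.05 and a median of 0.06 log2 (limma). Ifng, the gene of interferon-gamma, was named after its values were seen. It was at 7.03 and 7.05 at day 15, against 6.65 and 6.91 at day 0 (log2 intensity). Each of these values lay below the median of its array, so Ifng may lie at background. Il18, a cytokine that the inflammasome matures, differed by 0.76 ± 0.28 log2 (limma adjusted p = 0.359) and Il33, an alarmin, by 0.50 ± 0.33 log2 (0.699). Genes of antigen presentation and other interferon-gamma targets held none called among 23 measured, 1 had an unadjusted p below 0.05, and the median was 0.00 log2. Tap1, the peptide transporter, differed by 0.34 ± 0.20 log2 (0.650) and Psmb9, an immunoproteasome subunit, by 0.27 ± 0.20 log2 (0.741). Cd74, the invariant chain of class II molecules, stood at 8.30 and 7.60 at day 15 (log2 intensity, replicates 1 and 2), against 10.10 and 8.84 at day 0, a difference of -1.52 ± 0.45 log2 (0.246). H2-Ab1, a class II chain, differed by 0.82 ± 0.39 log2 (0.513).

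Sensors and inflammasome genes, with which these proteins act, held none called among 15 measured, 2 had an unadjusted p below 0.05 (limma), and the median was -0.07 log2. Tlr3, a receptor of double-stranded RNA, had means of 11.48 ± 0.06 at day 15 and 10.28 ± 0.44 at day 0 (limma adjusted p = 0.106), and Sting1, the adaptor of DNA sensing, had 9.80 ± 0.46 and 8.67 ± 0.59 (0.259). The conjugation machinery that guides these proteins to vacuoles, the enzymes that prenylate them and their known regulators held none called among 19 measured. In that list 2 had an unadjusted p below 0.05 (limma) and the median was 0.01 log2. Trim21, an antibody receptor and ubiquitin ligase, differed by 0.78 ± 0.28 log2 (0.347) and Map1lc3b, an autophagosome marker, by 0.50 ± 0.16 log2 (0.281).

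The genes nearest to Gbp8 in pattern were found by the root mean square distance between gene-centred log2 values over the 4 arrays, outside the family. They were Panx3 (distance 0.10 log2), a channel protein of hypertrophic chondrocytes, Col10a1 (0.21), their type X collagen, Ucma (0.23), a small secreted cartilage protein, Igfbp4 (0.23), which binds insulin-like growth factors, and Slpi (0.26), a secreted protease inhibitor. Panx3 averaged 13.38 ± 0.09 log2 at day 15 and 9.04 ± 0.19 log2 at day 0 (SD, n = 2). For the mean of the 7 members the nearest were Prkg2, a cyclic GMP-dependent kinase of growth plate cartilage (0.10), Cdo1, cysteine dioxygenase (0.10), Kazald1, a secreted protein (0.10), Slc27a1, a fatty acid transporter (0.12), and Egln3, a prolyl hydroxylase of the hypoxia pathway (0.12). The distance is taken over 4 arrays only, 2 a day, so genes with a like difference between the days score as near.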

How the data were processed

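Total RNA of 4 ATDC5 samples, 2 at day 15 and 2 at day 0 per the labels, was hybridised to 1-colour whole-transcript arrays, 1 per sample. The deposited table holds 1 processed intensity per probe set, on a linear scale by the range of its values (0.72 to 23103). How the authors corrected background, summarized probes and normalized arrays is not given in the sources used here, and the genome build was mm9 per the submitters' processing notes. Names came from the platform annotation and the GRCm38.p6 gene table. Of 35512 probe sets 21789 had 1 gene symbol, 1621 several and 12102 none listed. The gene table held identifiers for 21698 of the first. The brightest probe set of each gene was kept (19938 genes).

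Values were turned to log2 after adding 1 and quantile normalized. Day 15 was compared with day 0 using limma 3.58.1 in R 4.3.3 (lmFit, eBayes, group as the only term), with Benjamini-Hochberg adjustment over all genes and a threshold of 0.05. The procedure was tested on simulated data. Figures used matplotlib 3.10.9 in Python 3.11.15.

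The members and lists were chosen with earlier results of these data known. The text names all 7 members, up to 4 called genes of each list with the largest difference (the 2 largest where fewer than 2 were called), a fixed set of interferon genes and the nearest 5 patterns. Isg15, Igtp and 1 other gene of the fixed set are not reported here. The alternatives were deposited scaling, median centring, a pseudocount of 16, a filter at the median level, trend and robust hyperparameters, the mean of probe sets, all probe sets tested, the replicate block and leaving out each array. Reading each replicate number apart was added after seeing the data.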

Additional observations from a re-analysis of the deposited data

How the results depend on the processing

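The number of arrays, 2 a day, limits every value. The 7 members were chosen for their difference on these same arrays, so their directions and calls under the alternatives are a description and carry no test. No direction changed for any of the 7 guanylate-binding proteins under the 12 alternatives or within either replicate number, and 3 or 4 of them were called in each fit (3 or 4 without 1 array). Gbp4, Gbp8 and Gbp9 were called in each of these fits; Gbp11 was not called without day 0 replicate 1, without day 15 replicate 1 or 2, or with all probe sets tested, and the filter removed it. The labels do not say what the replicate number marks, and the deviations of the replicate 1 arrays of the 2 days correlated across genes at 0.403. With the replicate block 440 genes were called higher and 188 lower, against 260 and 82 without it. With the block the list calls were 8 higher for antiviral genes, 2 for sensing, 1 each for atlastins and other family members, other inducible GTPases and signalling, and 1 lower for antigen presentation. Of the genes named in the text, Atl1 (limma adjusted p = 0.0263), Cd74 (0.0255), Iigp1 (0.0181), Irf7 (0.0228), Sting1 (0.0279) and Tlr3 (0.0441) were called with the block and not without it. With all probe sets tested 69 were higher and 5 lower, with 0 in the antiviral and the feedback lists. Deposited scaling and trend and robust each called 1 in the atlastin list and 1 in the list of other inducible GTPases, and median centring called 0 in the feedback list. Without 1 array 145 to 219 genes were higher and 29 to 63 lower, with 1 to 4 called higher in the antiviral list, 0 to 1 in the feedback list and 0 to 1 among other inducible GTPases. The fewest higher genes (145) came without day 15 replicate 1, and 167 without day 15 replicate 2; without day 0 replicate 2, 46 were lower. Each such fit takes the spread of the remaining single array from the other day's pair. The cause of these shifts was not tested.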
